A study of Mus musculus with 9 samples.

Results

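The 10 genes described here make and load MHC class I molecules: B2m, H2-K1, H2-D1, Tap1, Tap2, Tapbp, Psmb8, Psmb9, Erap1 and Nlrc5. They were taken by name from a count table that listed 55536 genes in mouse CD4+ T cells, the helper lymphocytes. All 10 were found, and all 10 were among the 14684 genes with enough counts to be tested. The cells came from spleens of wild-type male mice aged 6 to 12 weeks. In every culture they were activated through CD3 and CD28 with antibody-coated beads and 5 ng/mL of murine interleukin-2, a T cell growth factor. At the same time, for 18 h, 3 cultures were given exosomes (small vesicles that cells release) from the BMDM, or bone marrow-derived macrophages, of ApoE-deficient mice at 2000000000 particles per mL (EKO_exo). Exosomes of wild-type BMDM were given to 3 cultures at the same number of particles (WT_exo), and PBS without exosomes to 3 (PBS). The T cells were wild type throughout, and no unstimulated culture was analysed here. The design calls the replicates biological, but no label ties them to separate mice, and p-values therefore reflect only how far these cultures varied.

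MHC class I molecules display short peptides from inside the cell to CD8 T cells. A heavy chain, such as H2-K1 or H2-D1 in the mouse, pairs with the light chain beta-2 microglobulin, encoded by B2m. The peptides are cut by the proteasome, carried into the endoplasmic reticulum by the transporter TAP, trimmed there and loaded with the help of tapasin. Interferon gamma and the transactivator NLRC5 are known to raise many genes of this pathway.

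NLRC5 and its partners are known to act through an arrangement of boxes in class I promoters, in which an X2 box is followed by a Y box. The windows below run from 250 bases before to 50 bases after a RefSeq transcription start (build GRCm38.p6), 5′ to 3′ on the strand of the gene, and 8 of the 10 genes had one. Capitals mark 3 motifs searched on both strands: TGACG followed by any 20 bases and ATTGG (the X2-Y arrangement, of which the outer letters are in capitals), GAAANNGAA (the core of an interferon response element) and the NF-kB consensus. The promoters of B2m, H2-K1 and H2-D1 are shown because they share the first and the third motif, and that of Erap1 because it holds only the second.

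B2m, chr2:122147437-122147736, plus strand: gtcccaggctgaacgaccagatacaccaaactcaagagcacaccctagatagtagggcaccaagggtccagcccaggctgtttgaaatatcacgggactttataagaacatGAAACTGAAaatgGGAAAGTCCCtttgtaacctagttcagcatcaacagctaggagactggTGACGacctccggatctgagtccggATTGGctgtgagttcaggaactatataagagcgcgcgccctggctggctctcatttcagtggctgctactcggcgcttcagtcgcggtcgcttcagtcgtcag
H2-K1, chr17:34000298-34000597, minus strand: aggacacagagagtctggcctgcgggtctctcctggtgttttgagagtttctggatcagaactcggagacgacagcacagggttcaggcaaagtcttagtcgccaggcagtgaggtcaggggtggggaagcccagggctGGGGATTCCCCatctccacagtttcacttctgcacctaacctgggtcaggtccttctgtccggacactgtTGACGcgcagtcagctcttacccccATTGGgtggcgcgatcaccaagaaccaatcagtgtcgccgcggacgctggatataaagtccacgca
H2-D1, chr17:35262844-35263143, plus strand: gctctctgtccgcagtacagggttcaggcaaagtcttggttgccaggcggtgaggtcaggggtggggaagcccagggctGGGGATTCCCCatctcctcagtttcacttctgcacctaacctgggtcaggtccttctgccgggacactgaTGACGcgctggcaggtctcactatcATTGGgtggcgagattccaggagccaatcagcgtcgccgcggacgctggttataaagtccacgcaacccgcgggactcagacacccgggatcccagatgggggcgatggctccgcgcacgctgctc
Erap1, chr13:74639603-74639902, plus strand: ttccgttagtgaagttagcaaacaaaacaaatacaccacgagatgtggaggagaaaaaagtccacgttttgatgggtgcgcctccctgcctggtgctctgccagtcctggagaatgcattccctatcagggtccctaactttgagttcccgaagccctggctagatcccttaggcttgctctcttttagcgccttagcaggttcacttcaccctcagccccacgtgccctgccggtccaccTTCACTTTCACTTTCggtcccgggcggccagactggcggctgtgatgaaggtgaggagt

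The X2-Y letters stood in 31 of 32851 promoter windows of this length, or 0.0944%, and in those of 27 genes. Because the spacing of 20 bases was read off the chain promoters themselves, the match in these 3 is no finding. The share includes their own windows, and shows only how seldom the letters occur at this spacing. With 19 to 21 bases between the parts 66 windows held them (0.201%), and with 18 to 22 bases 88 did (0.268%). The interferon element core stood in 8.56% of windows and the NF-kB consensus in 4.51%. In H2-K1 and H2-D1 the NF-kB matches overlap each other on both strands and form a single run of capitals. The windows of Tap1, Tapbp, Psmb8 and Psmb9 held none of the 3 motifs, which says only that these letters are not in those 300 bases. The Tap1 and Psmb9 windows share 275 bases, since these neighbouring genes start back to back. Both are on chromosome 17 (GRCm38), Tap1 at 34187553 to 34197225 on the plus strand and Psmb9 at 34181987 to 34187764 on the minus strand. Psmb8 (34197721 to 34201454) and Tap2 (34203527 to 34216321) follow on the plus strand. Tapbp, H2-K1 and H2-D1 are on the same chromosome, so 7 of the 10 genes lie there, while B2m is on chromosome 2, Erap1 on chromosome 13 and Nlrc5 on chromosome 8.

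Before the results, the libraries are described. Total counts ranged over 25792975 to 30221565 in EKO_exo, 29138950 to 32971791 in WT_exo and 28412418 to 30464334 in PBS. Values are CPM, counts scaled to a common library total, with TMM factors, a normalization that assumes most genes do not differ. The EKO_exo libraries stood apart: each lay alone at the end of 1 of the first 3 principal components of log2 CPM, which held 18.8%, 15.7% and 13.4% of the variance. Replicate 3 lay at 61.6 on the first, replicate 1 at -54.0 on the second and replicate 2 at -36.4 on the third. Genes with at least 1 count numbered 19038 to 19518 in EKO_exo, 19989 to 20568 in WT_exo and 20120 to 20373 in PBS. The defining markers of the labelled cell type were present, with Cd4 at 886.4 ± 9.88 CPM in EKO_exo, 825.8 ± 5.60 CPM in WT_exo and 868 ± 18.0 CPM in PBS (SD, n = 3 each). Of 5 CD8 T cell markers, Cd8a had 5 to 31 counts in a library, Cd8b1 233 to 343, Eomes, which other T cells and NK cells also express, 464 to 769, and Gzmk and Klrc1 14 to 74.

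MHC class I mRNAs were abundant in these helper cells. The 10 genes together took 0.870 to 0.887% of all counts in EKO_exo, 0.839 to 0.867% in WT_exo and 0.796 to 0.808% in PBS, and the 3 groups did not overlap. Most of this sum is B2m, H2-K1 and H2-D1, with means of 2247, 2107 and 1499 of 8787 CPM in EKO_exo. The order of the sums does not hold gene by gene. Between EKO_exo and WT_exo only 4 of the 10 genes were on the higher side, with a median log2 fold change of -0.01. No gene of the list had fewer than 4759 counts in any library. In bulk RNA, more cells of a type and more RNA per cell cannot be told apart. On a scale of CPM per kilobase of exon, which allows genes to be compared, B2m was the highest at 2613 ± 61.4 in EKO_exo, 2390 ± 51.9 in WT_exo and 2293 ± 47.0 in PBS. H2-K1 came next at 717.1 ± 10.3, 702.9 ± 24.2 and 650.8 ± 10.1 CPM per kilobase in EKO_exo, WT_exo and PBS, followed by H2-D1 at 581.3 ± 7.12, 572.4 ± 15.2 and 533.2 ± 6.80 (SD, n = 3 each). The loading genes were lower. In PBS they ran from Psmb8 at 147.5 ± 2.11 CPM per kilobase through Tapbp at 131.8 ± 3.23, Tap1 at 100.2 ± 2.02 and Tap2 at 82.57 ± 2.77 to Nlrc5 at 59.31 ± 2.21, Psmb9 at 50.09 ± 1.32 and Erap1 at 32.51 ± 0.257. Only the order of Psmb8 and Tapbp varied between groups: Tapbp stood at 150.2 ± 4.97 and Psmb8 at 146.6 ± 5.19 CPM per kilobase in EKO_exo, a gap smaller than either SD. In WT_exo they stood at 152.6 ± 0.747 and 149.3 ± 3.11, a gap smaller than the sum of the SDs, and in all 3 groups the gaps between the other neighbours were larger than that sum.

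**Figure D1:**
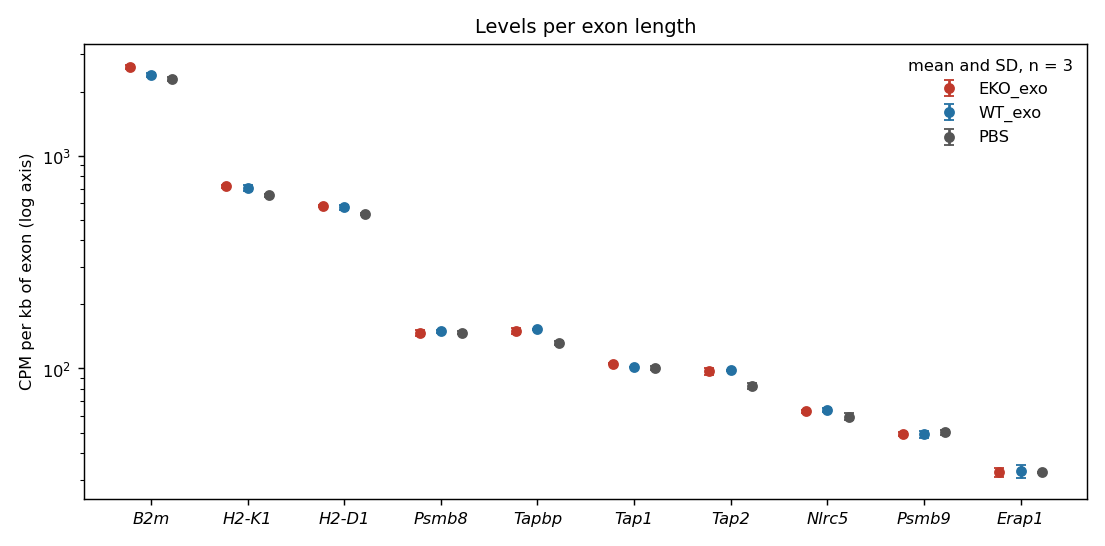
Mean level of each gene in CPM per kilobase of exon on a log axis, with SD bars over the 3 libraries of EKO_exo, WT_exo and PBS. B2m lies highest and Erap1 lowest, between 2293 and 2613 and between 32.51 and 32.96, and the differences between groups are small beside those between genes.

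The first comparison asked how exosomes of ApoE-deficient BMDM changed these mRNAs relative to PBS. Both heavy chains, the light chain, Tap2 and tapasin rose, by 9.00 to 17.3%. The immunoproteasome subunits Psmb8 and Psmb9 and the trimming enzyme Erap1 stood within 2% of PBS and did not pass the test. Of the 10 genes 5 rose, 0 fell and 5 did not pass, at an adjusted p under 0.05 over all genes (edgeR quasi-likelihood test, Benjamini-Hochberg). Among all 14684 genes, 5.08% were called, 2.21% higher and 2.87% lower. DESeq2, a second count test, called 6 higher and 0 lower, and 7 were higher and 0 lower at an unadjusted p under 0.05. Over the whole table DESeq2 called 1006 genes in either direction. Shares of all genes at an unadjusted p are not given for any comparison, so counts at that threshold have no background here. The median log2 fold change of the 10 genes was 0.10, against 0.00 over all genes tested. In 7 of the 10 every EKO_exo library lay above every PBS library, which held for 9.94% of all genes.

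B2m, the light chain shared by all class I molecules, had 2306, 2231 and 2203 CPM in EKO_exo replicates 1 to 3, against 2017, 1938 and 1961 CPM in PBS. All 3 EKO_exo libraries lay above all PBS libraries. The log2 fold change was 0.19 ± 0.024 (SE), a level 13.9% higher (edgeR adjusted p = 1.2e-05). H2-K1, a classical heavy chain, had 2141, 2085 and 2094 CPM in EKO_exo, against 1879, 1935 and 1922 CPM in PBS. The groups did not overlap, and the log2 fold change was 0.14 ± 0.025 (edgeR adjusted p = 0.00059). H2-D1, the other classical heavy chain, had 1511, 1478 and 1508 CPM in EKO_exo, against 1362, 1368 and 1395 CPM in PBS, again without overlap. Its log2 fold change was 0.12 ± 0.025 (edgeR adjusted p = 0.00236).

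Among the loading genes, Tap2, which encodes a subunit of the peptide transporter, had 381.1, 359.3 and 358.0 CPM in EKO_exo, against 300.1, 317.7 and 318.7 CPM in PBS. Its log2 fold change of 0.23 ± 0.036 was the largest of the 10 genes (edgeR adjusted p = 0.00014). Tapbp, which encodes tapasin, the bridge between transporter and heavy chain, had 564.6, 529.3 and 540.4 CPM in EKO_exo, against 466.6, 477.6 and 490.0 CPM in PBS. It rose by 0.19 ± 0.032 on the log2 scale (edgeR adjusted p = 0.000372). Tap1, the partner subunit of Tap2, had 582.2, 573.7 and 574.8 CPM in EKO_exo, against 536.2, 556.4 and 554.0 CPM in PBS. Its groups did not overlap, but the log2 fold change of 0.07 ± 0.029 did not pass (edgeR adjusted p = 0.181; DESeq2 adjusted p = 0.0327).

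The remaining members of the pathway did not pass against PBS. Nlrc5, the transactivator of class I genes, had 540.0, 534.4 and 526.0 CPM in EKO_exo, against 484.6, 504.4 and 522.1 CPM in PBS, a log2 fold change of 0.08 ± 0.033 (edgeR adjusted p = 0.159). Its lowest EKO_exo library lay just above its highest PBS library. Psmb8 and Psmb9 encode catalytic subunits that replace standard ones in the immunoproteasome. Psmb8 ranged over 475.8 to 508.7 CPM in EKO_exo and 490.8 to 504.2 CPM in PBS, with a 95% interval of the log2 fold change of -0.08 to 0.06. Psmb9 ranged over 177.0 to 184.3 CPM in EKO_exo and 179.1 to 188.6 CPM in PBS (interval -0.11 to 0.06). Erap1, an aminopeptidase that trims peptides in the endoplasmic reticulum, ranged over 226.9 to 250.1 CPM in EKO_exo and 235.2 to 238.8 CPM in PBS (interval -0.09 to 0.10). The calls of B2m, H2-K1 and Tap2 held under each of 17 alternative settings. Without EKO_exo replicates 1 and 3 those 3 calls remained (edgeR adjusted p up to 0.0384), while H2-D1 (0.127) and Tapbp (0.0618) lost theirs, at log2 fold changes of 0.10 and 0.15.

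**Figure D2:**
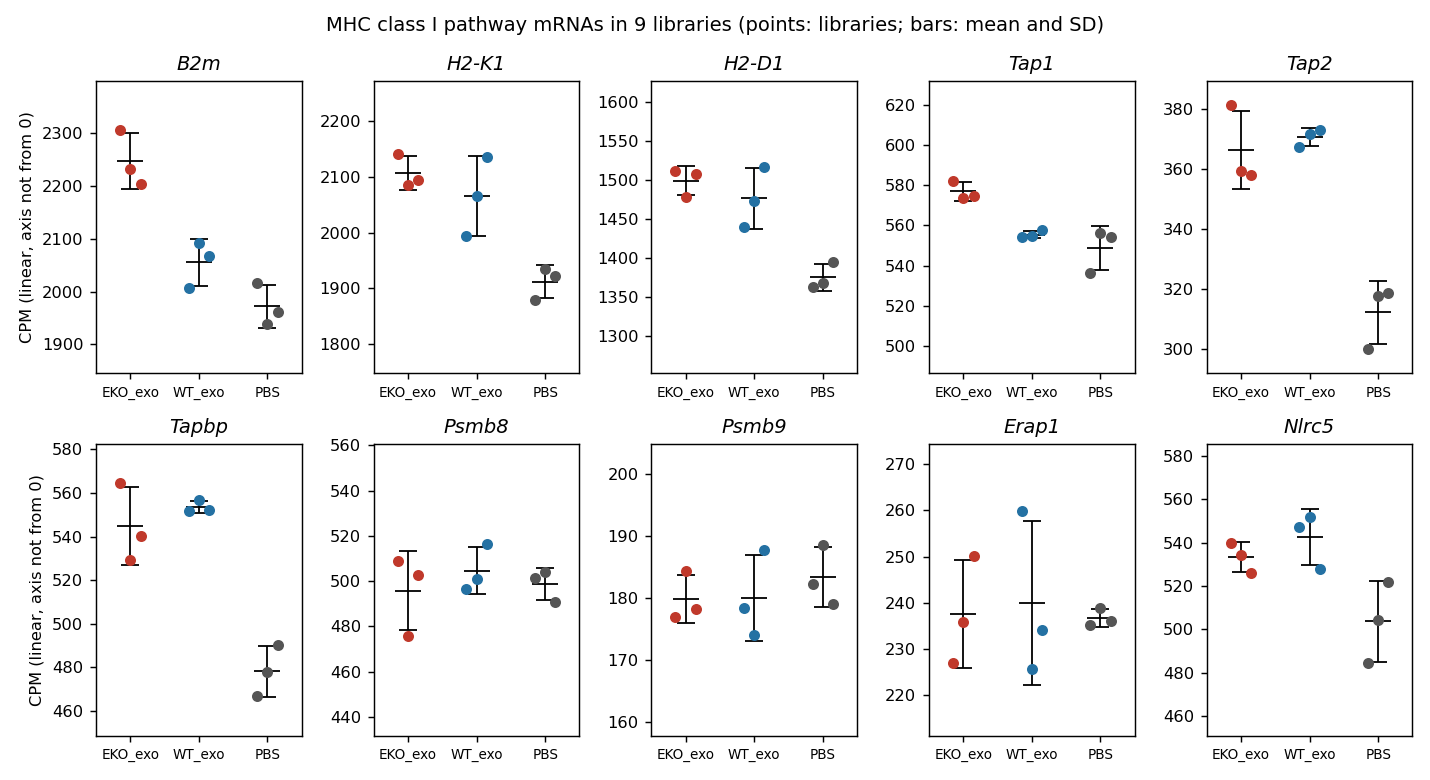
CPM of each of the 10 genes in every library of EKO_exo, WT_exo and PBS, on linear axes that do not start at 0, with mean and SD bars (n = 3). In B2m the EKO_exo libraries (2203 to 2306) lie above WT_exo and PBS, in Tap2 and Tapbp both exosome groups lie above PBS, and in Psmb8, Psmb9 and Erap1 the groups overlap.

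The second comparison set exosomes of wild-type BMDM against PBS. The heavy chains, Tap2 and Tapbp rose here too, by 7.30 to 18.7%, and 4 of the 10 genes passed, all higher and 0 lower. Over all genes 4.97% were called, 1.83% higher and 3.14% lower. DESeq2 called 5 higher and 0 lower, and 6 were higher and 0 lower at an unadjusted p under 0.05. Over the whole table DESeq2 called 911 genes in either direction. The median log2 fold change of the 10 was 0.08, against 0.00 over all genes tested, and in 5 the groups did not overlap, all higher, where 10.6% of all genes did so. This comparison and the first share the PBS libraries, so that the 2 sets of calls are not independent.

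Tap2 had 367.1, 371.7 and 372.9 CPM in WT_exo, against the PBS values of 300.1, 317.7 and 318.7 CPM, without overlap. The log2 fold change was 0.25 ± 0.036 (edgeR adjusted p = 4.81e-05). Tapbp had 551.8, 556.6 and 552.1 CPM in WT_exo, against 466.6 to 490.0 CPM in PBS, and rose by 0.21 ± 0.032 (edgeR adjusted p = 8.1e-05). H2-K1 had 1994, 2066 and 2136 CPM in WT_exo, against 1879 to 1935 CPM in PBS, and rose by 0.11 ± 0.025 (edgeR adjusted p = 0.00568). H2-D1 had 1439, 1473 and 1517 CPM in WT_exo, against 1362 to 1395 CPM in PBS, and rose by 0.10 ± 0.025 (edgeR adjusted p = 0.0132). The lowest WT_exo library lay above the highest PBS library in all 4 of these genes. B2m had 2006, 2092 and 2068 CPM in WT_exo, against 1938 to 2017 CPM in PBS. WT_exo replicate 1 lay below the highest PBS library, and the log2 fold change of 0.06 ± 0.024 did not pass (edgeR adjusted p = 0.195).

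Nlrc5 had 547.5, 552.1 and 527.8 CPM in WT_exo, all above the 484.6 to 522.1 CPM of PBS, with a log2 fold change of 0.11 ± 0.032 that lay at the threshold (edgeR adjusted p = 0.0536). It passed with DESeq2 (0.00919), with genes under a mean of 5 CPM left out (0.0422), with only the 2 groups fitted (0.0296), without EKO_exo replicate 1 (0.0351) and without PBS replicate 3 (0.0283). Tap1 (554.1 to 557.5 CPM in WT_exo), Psmb8 (496.6 to 516.6), Psmb9 (174.1 to 187.7) and Erap1 (225.8 to 259.9) overlapped with PBS, at log2 fold changes of 0.02, 0.02, -0.03 and 0.02. The heavy chain calls rested on few libraries. H2-K1 lost its call without WT_exo replicate 3 (edgeR adjusted p = 0.0762), and H2-D1 without WT_exo replicate 2 (0.0553) or 3 (0.12) or PBS replicate 1 (0.0672) or 2 (0.0743), so that 2 genes passed without WT_exo replicate 3.

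The third comparison set the exosomes of ApoE-deficient against those of wild-type BMDM. B2m alone among the 10 passed, 9.30% higher in EKO_exo, and 0 were lower. It was 1 of only 5 genes called in the whole table, where 0.0341% were called, 0.0272% higher and 0.00681% lower. DESeq2 also called 1 of the 10 higher and 0 lower, as did an unadjusted p under 0.05. Over the whole table DESeq2 called 38 genes in either direction. B2m had 2306, 2231 and 2203 CPM in EKO_exo, against 2006, 2092 and 2068 CPM in WT_exo, without overlap. The log2 fold change was 0.13 ± 0.024 (edgeR adjusted p = 0.0403). The call was lost without EKO_exo replicate 1 (0.149) or 2 (0.116), WT_exo replicate 1 (0.407), 2 (0.0812) or 3 (0.225) or PBS replicate 2 (0.0574), and without EKO_exo replicates 1 and 3 together (0.309). In these fits the log2 fold change ran from 0.11 to 0.14.

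The other 9 genes did not pass between the exosome groups. The median log2 fold change over all 10 was -0.01, against 0.00 over all genes tested. The 95% interval of the log2 difference was -0.02 to 0.08 for H2-K1, -0.03 to 0.07 for H2-D1, -0.09 to 0.06 for Tap2 and -0.09 to 0.04 for Tapbp. Tap1 was higher in all 3 EKO_exo libraries (573.7 to 582.2 CPM) than in any WT_exo library (554.1 to 557.5 CPM), but the difference of 0.05 ± 0.029 did not pass (edgeR adjusted p = 0.749). With B2m it made 2 of the 10 whose groups did not overlap, where 5.88% of all genes were higher and 5.97% lower without overlap. A difference past the threshold against PBS in EKO_exo and not in WT_exo, as for B2m, is tested only by this comparison.

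CD4 T cell markers also stood higher in EKO_exo. The summed level of 11 CD4 T cell markers was 4439 to 4492 CPM in EKO_exo, 4202 to 4317 CPM in WT_exo and 4209 to 4329 CPM in PBS, and all 11 were on the higher side in EKO_exo against WT_exo, although 0 passed edgeR's test. DESeq2 called 4 of them higher, among 38 genes it called in the whole table, and 5 were higher and 0 lower at an unadjusted p under 0.05. Against WT_exo the median log2 fold change of the 11 was 0.045, and 0.0016 over all genes tested. The markers were measured in the same libraries, so their directions are not independent. Of these 11, 3 rose in EKO_exo against PBS by edgeR, and are named after their values were seen: Cd3e and Cd247, chains of the receptor complex, and Cd5. Over all genes 2.21% rose there. Against PBS 9 of the 11 were on the higher side in EKO_exo, all but Trbc1 and Cd2. Cd5 had a log2 fold change of 0.11 against PBS in both exosome groups (edgeR adjusted p = 0.0516 in WT_exo). The part of these markers in the difference of B2m was not tested.

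**Figure D3:**
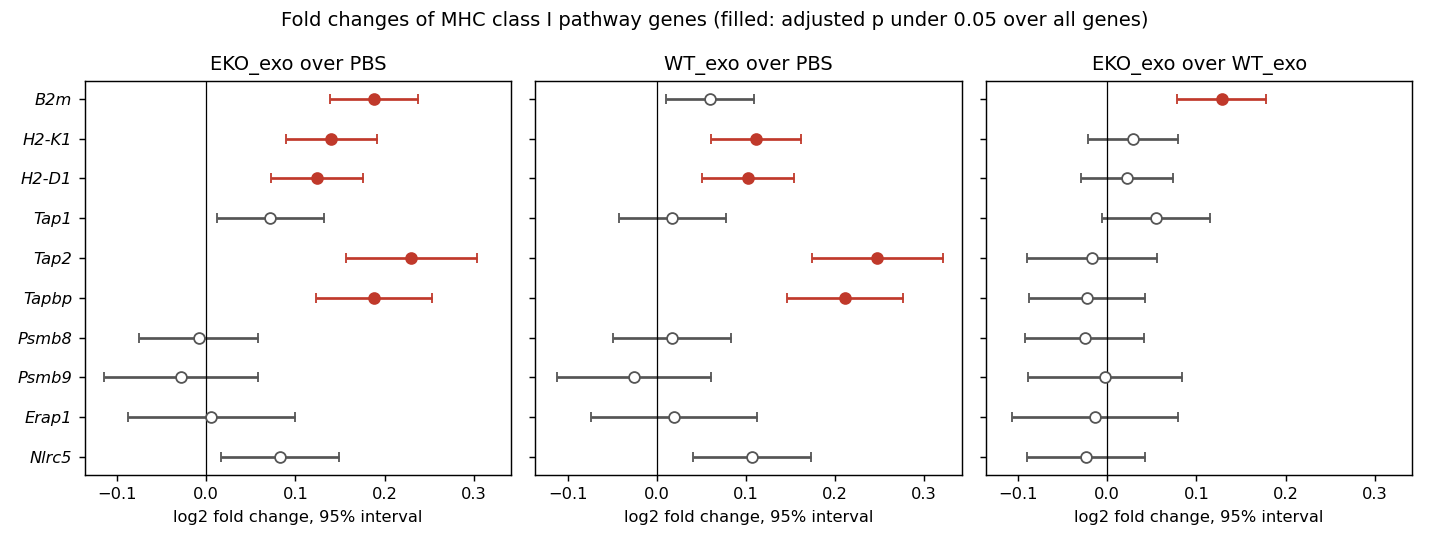
Log2 fold changes with 95% intervals for the 10 genes in EKO_exo over PBS, WT_exo over PBS and EKO_exo over WT_exo, filled where the adjusted p over all genes is under 0.05. Filled points number 5, 4 and 1, and Tap2 lies farthest right in both comparisons with PBS, at 0.23 and 0.25.

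Ratios of counts within a library do not depend on library scaling, and they show how the genes moved relative to one another. The choice of these ratios, apart from the proteasome one, was made after the values were seen, and they carry no test. The 2 transporter subunits did not move alike. The Tap2 count was 0.655, 0.626 and 0.623 of the Tap1 count in EKO_exo, 0.662, 0.670 and 0.669 in WT_exo and 0.560, 0.571 and 0.575 in PBS. No library of either exosome group overlapped with PBS. On the log2 scale the ratio was higher by 0.16 in EKO_exo and by 0.23 in WT_exo relative to PBS.

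The ratio of the heavy chains, H2-K1 to H2-D1, overlapped in all 3 groups, at a log2 mean of 0.49 ± 0.015 in EKO_exo, 0.48 ± 0.012 in WT_exo and 0.48 ± 0.022 in PBS (SD, n = 3 each). Against the light chain, the summed heavy chain count was 1.58, 1.60 and 1.64 times the B2m count in EKO_exo, 1.71, 1.69 and 1.77 times in WT_exo, and 1.61, 1.70 and 1.69 times in PBS. EKO_exo lay below WT_exo in every library, by 0.10 on the log2 scale, and overlapped with PBS.

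In the immunoproteasome Psmb8, Psmb9 and Psmb10 take the places of Psmb5, Psmb6 and Psmb7. The mean log2 ratio over these 3 pairs was 0.841, 0.781 and 0.817 in EKO_exo, 0.921, 0.928 and 0.936 in WT_exo, and 0.818, 0.885 and 0.906 in PBS. EKO_exo was lower than WT_exo without overlap, by 0.115, and WT_exo was higher than PBS without overlap, by 0.059. Both had p = 0.1 in a two-sided exact permutation test, the smallest value that 3 against 3 libraries allow, and 0.15 when adjusted over the 3 comparisons. EKO_exo and PBS overlapped (difference -0.056, exact permutation p = 0.2). The pair Psmb10 to Psmb7 differed most between the exosome groups, by -0.182 (EKO_exo minus WT_exo), but neither of the 2 genes passed alone: Psmb10 had 56.95 ± 3.56 CPM in EKO_exo and 61.06 ± 2.63 CPM in WT_exo, and Psmb7 had 115.2 ± 6.06 and 108.9 ± 3.73 CPM (SD, n = 3 each).

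**Figure D4:**
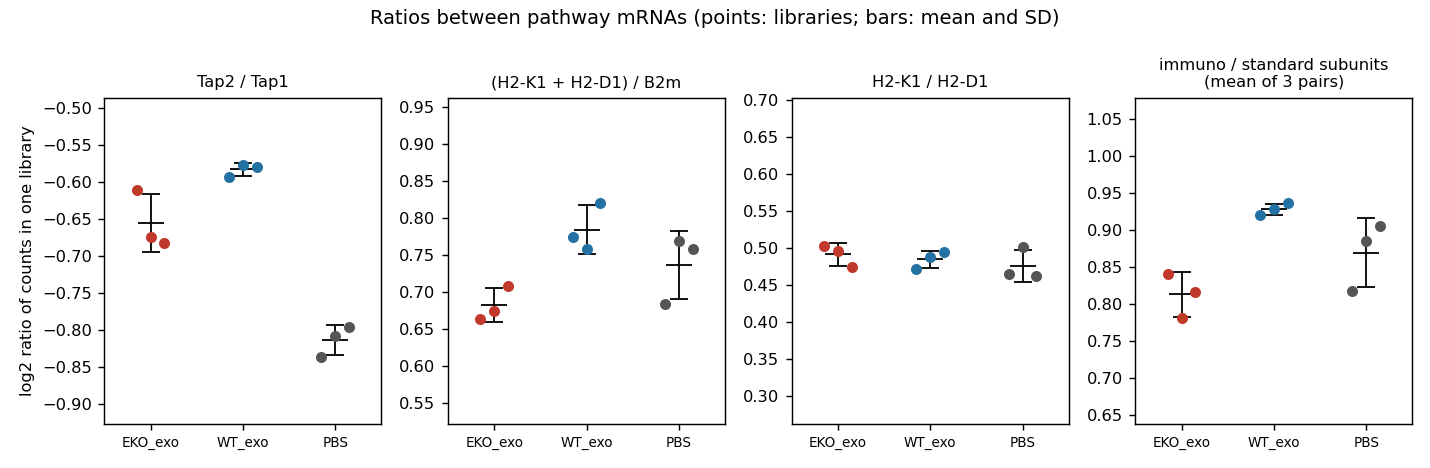
Log2 ratios of counts within each library for EKO_exo, WT_exo and PBS, with mean and SD bars (n = 3), on axes of equal span. Tap2 to Tap1 lies above PBS in both exosome groups, H2-K1 to H2-D1 is level, and the heavy to light chain and immunoproteasome ratios lie lower in EKO_exo than in WT_exo.

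Across the 9 libraries the genes fell into different degrees of likeness. The Pearson correlation of each gene's standardized log2 CPM with the mean of the other 9 was 0.946 for H2-K1, 0.936 for H2-D1, 0.925 for Tap2 and 0.894 for Tapbp. It was 0.710 for Tap1, 0.643 for Nlrc5 and 0.633 for B2m, and 0.0682, -0.118 and -0.336 for Psmb8, Erap1 and Psmb9. These points share the libraries, their scaling and the group differences. With group means removed it was 0.699 for Tap1, 0.665 for H2-K1, 0.645 for Tap2, 0.552 for H2-D1 and 0.479 for Tapbp. For Psmb8 it was then 0.309, for Psmb9 -0.0403, for Nlrc5 -0.181, for B2m -0.259 and for Erap1 -0.45. Outside the list, the genes whose log2 CPM followed the mean of the 10 most closely over the 9 libraries were Ltb (r = 0.983), which encodes the cytokine lymphotoxin beta, Rabac1 (0.974), Srcap (0.971), Tmbim6 (0.970) and Abtb2 (0.969). Ltb averaged 290 CPM over the 9 libraries, at log2 fold changes of 0.24 ± 0.036 in EKO_exo and 0.20 ± 0.036 in WT_exo against PBS.

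Beyond the 10 genes, some other genes of the class I pathway passed the test. Of 17 other heavy chain genes 14 were tested, and in EKO_exo against PBS 2 were higher and 0 lower, with a median log2 fold change of 0.02 against 0.00 over all genes. Over all genes 2.21% were higher and 2.87% lower in EKO_exo, and 1.83% and 3.14% in WT_exo. Those shares are of edgeR's adjusted calls only. In EKO_exo DESeq2 called 3 of the 14 higher and 0 lower, among 1006 genes it called in either direction in the whole table. At an unadjusted p under 0.05, 5 of the 14 were higher and 0 lower, without a share of all genes to set beside them. The genes called by edgeR were H2-T23, which encodes the nonclassical chain Qa-1, with 334.7 ± 3.57 CPM in EKO_exo and 302.8 ± 18.3 CPM in PBS, and H2-Q4, with 376.4 ± 27.3 CPM in EKO_exo and 341.7 ± 13.9 CPM in PBS (SD, n = 3 each). The log2 fold changes were 0.14 ± 0.038 and 0.14 ± 0.041 (edgeR adjusted p = 0.0233 and 0.0478). H2-T23 lost its call without any 1 of EKO_exo replicates 1 and 3 and PBS replicates 1 and 2 (up to 0.185). The call of H2-Q4 held only when replicate 3 of EKO_exo or of PBS was the library left out, and was lost without any 1 of the other 7 (up to 0.303), with upper-quartile scaling (0.0582) and with only the 2 groups fitted (0.0849). In WT_exo against PBS 0 of the 14 passed edgeR's test, with 3 higher and 0 lower at an unadjusted p under 0.05 and 1 higher by DESeq2. H2-Q7, another chain of the Q region, had log2 fold changes of 0.14 ± 0.045 and 0.11 ± 0.045 in EKO_exo and WT_exo, neither past edgeR's test. In EKO_exo it passed with DESeq2 (0.0289), without a filter (0.0253), with genes under a mean of 5 CPM left out (0.0238), without EKO_exo replicate 2 (0.0283) and without PBS replicate 3 (0.0123), and in WT_exo without PBS replicate 3 (0.0385).

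Chaperones of class I assembly were among the genes that fell. Of 17 other assembly and peptide supply genes, 1 rose and 1 fell in EKO_exo against PBS, and 1 rose and 2 fell in WT_exo, with medians of -0.03 in both. Over all genes 2.21% rose and 2.87% fell in EKO_exo, and 1.83% rose and 3.14% fell in WT_exo. Canx, which encodes calnexin, a chaperone of new heavy chains, had 635.2 ± 15.5 CPM in EKO_exo, 624.0 ± 6.45 CPM in WT_exo and 689.8 ± 17.7 CPM in PBS. It fell by 0.12 ± 0.030 in EKO_exo (edgeR adjusted p = 0.0163) and by 0.14 ± 0.030 in WT_exo (0.00276). Calr, which encodes calreticulin, had 1249 ± 40.0 CPM in EKO_exo, 1188 ± 21.1 CPM in WT_exo and 1307 ± 14.4 CPM in PBS, and fell by 0.14 ± 0.027 in WT_exo (edgeR adjusted p = 0.00137). Its log2 fold change in EKO_exo was -0.07 (0.179). Psme2, a subunit of the PA28 proteasome activator, rose by 0.27 ± 0.062 in EKO_exo (0.00837) and 0.21 ± 0.062 in WT_exo (0.043). Leaving out replicate 3 of EKO_exo or replicate 1 of PBS ended the EKO_exo call of Canx (up to 0.119), and leaving out replicate 1 of EKO_exo or replicate 2 of PBS that of Psme2 (up to 0.0833). The WT_exo call of Psme2 was lost without EKO_exo replicate 2, any 1 of the WT_exo libraries or PBS replicate 2 or 3 (up to 0.259), and with upper-quartile scaling (0.0561).

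No subunit of the standard proteasome passed the test. Of 14 subunits, 0 were called in any of the 3 comparisons by edgeR or by DESeq2, and at an unadjusted p under 0.05 there was 1 lower in each comparison with PBS and 0 between the exosome groups. Over all genes edgeR called 5.08% in EKO_exo and 4.97% in WT_exo against PBS, and 0.0341% between the exosome groups. Psma2, with the smallest p among the 14 subunits, had a log2 fold change of -0.09 ± 0.040 in EKO_exo against PBS.

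**Figure D5:**
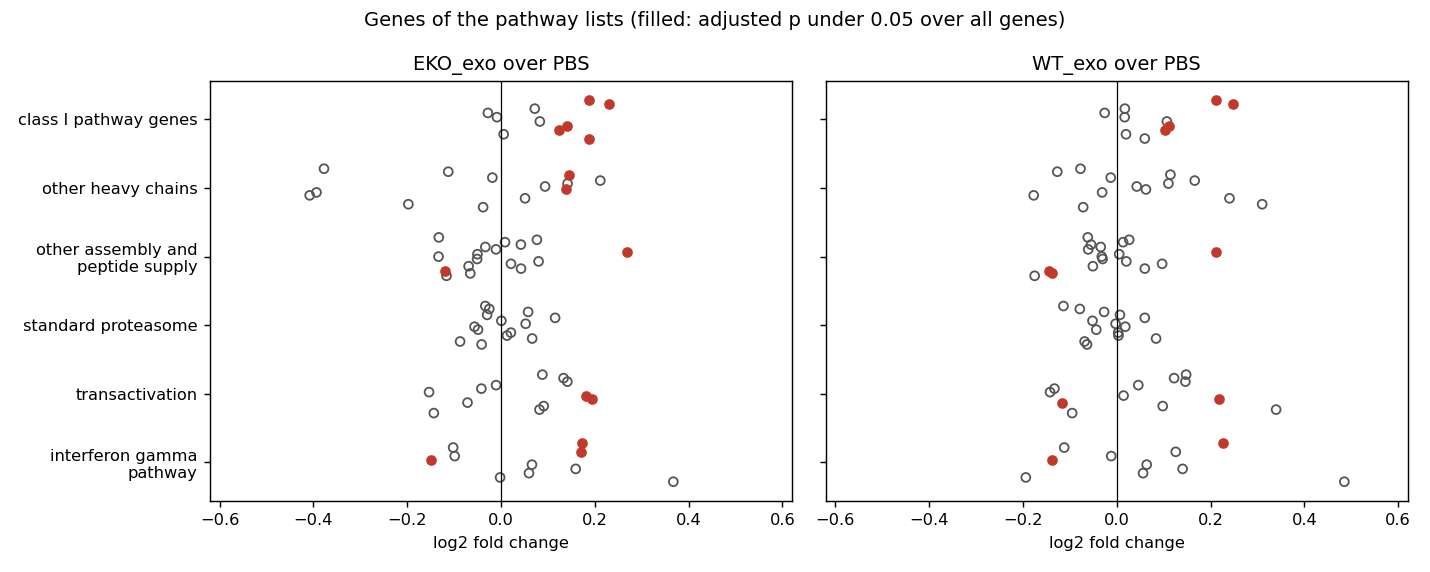
Log2 fold changes in EKO_exo over PBS and WT_exo over PBS for the tested genes of 6 lists, 1 point a gene, filled where the adjusted p over all genes is under 0.05; 2 points lie beyond the axis. The filled points of the 10 class I pathway genes all lie right of 0, while the standard proteasome list has none.

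Among the regulators of class I genes, Irf1 rose in both exosome groups. Of 12 transactivation genes 2 rose in EKO_exo against PBS (median 0.08), and 1 rose and 1 fell in WT_exo (median 0.07). The shares over all genes were 2.21% risen and 2.87% fallen in EKO_exo, and 1.83% and 3.14% in WT_exo. Irf1, an interferon-induced activator of class I genes, had 556.9 ± 22.4 CPM in EKO_exo, 566.8 ± 11.1 CPM in WT_exo and 487.1 ± 7.46 CPM in PBS. It rose by 0.19 ± 0.033 in EKO_exo (edgeR adjusted p = 0.000363) and by 0.22 ± 0.033 in WT_exo (6.92e-05), under every alternative tried. Irf2, a related factor, had 129.1 ± 2.01 CPM in EKO_exo, 115.1 ± 6.28 CPM in WT_exo and 113.9 ± 1.36 CPM in PBS, and rose in EKO_exo (0.18 ± 0.048, adjusted p = 0.0252 by edgeR). Leaving out replicate 1 or 3 of EKO_exo or any 1 of the PBS libraries ended the call (up to 0.11). Ezh2, which encodes a histone methyltransferase, fell in WT_exo by 0.12 ± 0.033 (edgeR adjusted p = 0.0338), a call lost without any 1 WT_exo or PBS library (up to 0.154) and without a filter on low counts (0.083).

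In the interferon gamma pathway 2 of 10 genes rose and 1 fell in EKO_exo against PBS (median 0.06), and 1 rose and 1 fell in WT_exo (median 0.06). Over all genes 2.21% rose and 2.87% fell in EKO_exo, and 1.83% rose and 3.14% fell in WT_exo. Jak2, a kinase of the interferon gamma receptor, fell by 0.15 ± 0.035 in EKO_exo (edgeR adjusted p = 0.01) and by 0.14 ± 0.035 in WT_exo (0.0183). Its call was lost without PBS replicate 3 in EKO_exo (0.0579), and in WT_exo without WT_exo replicate 2 or 3 or PBS replicate 1 or 3 (up to 0.127). Socs1, an inhibitor of cytokine signalling, rose by 0.17 ± 0.048 in EKO_exo (0.0353), a call kept without EKO_exo replicate 1 or PBS replicate 3 and lost without any 1 of the other 7 libraries (up to 0.213) or with only the 2 groups fitted (0.0694). Without EKO_exo replicates 1 and 3, H2-T23 (0.292), H2-Q4 (0.192), Canx (0.415), Irf2 (0.316) and Jak2 (0.122) lost their EKO_exo calls. Ifng itself, the gene for interferon gamma, was at 6.83 ± 0.549 CPM in EKO_exo, 7.42 ± 1.54 CPM in WT_exo and 5.30 ± 1.48 CPM in PBS, with log2 fold changes of 0.37 ± 0.199 and 0.49 ± 0.198 that did not pass (edgeR adjusted p = 0.359 and 0.196). Between the exosome groups 0 genes of these 5 other lists passed edgeR or DESeq2, and 3 were higher and 0 lower at an unadjusted p under 0.05. Over all genes edgeR called 0.0341% there.

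Of the 27 genes with the X2-Y letters at their start, 21 were tested. In EKO_exo against PBS 4 were higher and 2 lower, and in WT_exo against PBS 3 were higher and 1 lower. Over all genes 2.21% were higher and 2.87% lower in EKO_exo, and 1.83% and 3.14% in WT_exo. The chains of this list, off whose promoters the spacing was read, made up 3 of the 4 and 2 of the 3 higher ones. The other was Tecpr1, an autophagy gene, at 0.29 ± 0.062 and 0.27 ± 0.062 log2. The lower ones were Nasp, a histone chaperone, at -0.17 ± 0.043 and -0.20 ± 0.043, and, in EKO_exo, Calu, a calcium-binding protein of the secretory pathway, at -0.16 ± 0.040. Tecpr1, Nasp and Calu were chosen with their values in view.

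Other cell types carry class I genes as well. The summed level of 8 B cell markers was 5.46 to 9.43 CPM in EKO_exo, 6.10 to 7.96 CPM in WT_exo and 6.94 to 7.47 CPM in PBS, with Fcer2a at 0 in 2 libraries. Macrophage and monocyte markers, 13 in all, summed to 42.7 to 46.6 CPM in EKO_exo, 40.7 to 49.6 CPM in WT_exo and 36.4 to 44.0 CPM in PBS. C1qa was at 0 in all 9 libraries, Fcgr1 in 8 and Adgre1 in 6. Against PBS, 1 of their 5 tested genes passed in EKO_exo, where 5.08% of all genes did. This was Csf1r, named after its values were seen, at 2.28 ± 0.311 CPM in EKO_exo and 0.870 ± 0.217 CPM in PBS. DESeq2 called 0 of the 5. Dendritic cell markers summed to 9.84 to 12.2, 9.38 to 12.9 and 10.5 to 12.1 CPM, and NK cell markers to 2.13 to 2.86, 1.49 to 2.79 and 1.16 to 3.28 CPM, in EKO_exo, WT_exo and PBS. CD8 T cell markers summed to 34.4 to 37.7, 31.0 to 35.0 and 29.4 to 33.2 CPM, neutrophil markers to 5.45 to 7.48, 4.52 to 8.54 and 3.45 to 6.48 CPM, and 7 MHC class II genes to 216.8 to 237.8, 229.9 to 241.1 and 226.6 to 234.9 CPM in the same order. Single markers in these lists passed as well, and are named after their values were seen. Eomes, of the CD8 T cell list, rose in EKO_exo against PBS, at 23.8 ± 1.56 CPM in EKO_exo and 17.5 ± 1.47 CPM in PBS (edgeR adjusted p = 0.017). Only 2 of the 5 genes of that list were on the higher side there, and Eomes is the largest part of its sum. Cd8b1 did not pass, at 9.52 ± 0.494 CPM in EKO_exo, 8.58 ± 0.902 CPM in WT_exo and 11.1 ± 0.925 CPM in PBS. Both exosome groups lay below PBS in Cd8b1 without overlap, as did 10.6% of all genes in EKO_exo and 11.6% in WT_exo. The 2 comparisons share the PBS libraries. Cd74, the class II invariant chain, rose in both exosome groups, at 93.4 ± 3.22 CPM in EKO_exo, 93.1 ± 2.92 CPM in WT_exo and 82.2 ± 2.44 CPM in PBS (0.0416 and 0.0462). H2-DMb2, a class II peptide exchange chain, fell in EKO_exo, at 3.65 ± 1.69 CPM in EKO_exo and 6.98 ± 1.46 CPM in PBS (0.0261). S100a9, a neutrophil gene with at most 21 counts in a library, was at 0 in all 3 WT_exo libraries and was called lower there than in PBS (0.0407), a call DESeq2 did not make. The part of these cells in the class I differences was not tested.

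Reads of some of these genes could also come from others. At a length of 50 bases, 9.63% of H2-K1 and 12.8% of H2-D1 transcript sequence was also found in another gene, among them H2-Q1, H2-Q7, H2-Q10 and each other; at 100 bases the shares were 0.957% and 3.59%. They were 0% for B2m at both lengths, 36.4% and 14.1% for H2-Q4, 28.3% and 18.4% for Psme2 (with Psme2b), and 23.2% and 14.8% for Tapbp. For H2-T23 they were 14.5% and 3.15%. For Tap2 they were 11.6% and 4.99%, mostly with the antisense gene Gm15821. For Psmb8 they were 11.9% and 8.05%, mostly with the antisense gene Gm20496, and for Erap1 10.7% and 10.0%. Tap1 and Psmb9 exons overlap by 212 bases on opposite strands, and Erap1 exons overlap those of Cast, 834 bases on the opposite strand. Most of the share of Tapbp lies in 904 exon bases that overlap the antisense gene Gm19412, which had at most 156 counts in a library. How the counting treated strand and shared reads is not stated in the labels or notes. H2-K1, H2-D1, H2-T23, the Q-region chains, Tapbp, Tap2, Psmb8, Erap1 and Psme2 are therefore less certain than B2m and Nlrc5.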

How the data were processed

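The 9 libraries, 3 each of EKO_exo, WT_exo and PBS, were grouped by their titles. The deposited values are raw counts per gene. STAR 2.7.5c and build GRCm38 are named in the submitters' processing notes; the counting tool, strand setting and annotation were not given in the sources read. Positions and exon lengths came from GENCODE M21 (GRCm38), which held all 55536 identifiers, and promoters from RefSeq.

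The genes and lists were chosen with earlier results of these data known. In R 4.3.3, edgeR 4.0.16 kept 14684 genes (filterByExpr, minimum count 10, minimum total 15), scaled by TMM, fitted the 3 groups together and ran quasi-likelihood F tests (6 residual, 21.1 prior degrees of freedom). A gene was called where its Benjamini-Hochberg adjusted p over all genes was under 0.05. Standard errors come from the F statistic. Within groups, chi-square over degrees of freedom was 4.20 to 7.44, so no 2 libraries agreed within sampling noise. Alternatives were DESeq2 1.42.0, other scalings and filters, 2-group fits, a replicate block and omitted libraries. Of each other list the text names at most the 3 genes with the smallest p, or its called genes where 5 or fewer, plus Ifng, Irf1 and proteasome subunits of the ratios, and the 5 genes most like the 10; others are marked as named later. Some single-gene results are not reported here. Nrdc and Hm13 were not found under those symbols. The scripts were tested on simulated counts in which every change was larger than those of the 10 genes. That test does not tell how often changes of the sizes reported here are found.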

Additional observations from a re-analysis of the deposited data

Results flagged for a closer look

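Of the 10 genes, only B2m passed a direct test of the difference between the 2 kinds of exosome. Over all genes tested, 5 passed. The log2 fold change of B2m was 0.19 in EKO_exo and 0.06 in WT_exo against PBS, and the difference, EKO_exo over WT_exo, was 0.13 ± 0.024 with an edgeR adjusted p of 0.0403. It was higher in 3 of 3 EKO_exo libraries than in any WT_exo library. The adjusted p ran from 1.95e-05 to 0.407 over 17 alternatives and passed the threshold in 9 of them, while the log2 fold change ran from 0.11 to 0.14. Groups of 3 libraries were too small for a search for single outlying libraries.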

How the results depend on the processing

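Among the values of the 10 genes recomputed under alternatives, 479 kept their side of the threshold, 15 lost a call and 6 gained one, and no called gene reversed. The number of genes called in EKO_exo against PBS was 5 or 6 except without EKO_exo replicates 1 and 3 together, where it was 3, in a fit that leaves 1 EKO_exo library assumed to vary like the others. Leaving out 1 library gave 5 in every fit for EKO_exo against PBS, 2 to 5 for WT_exo against PBS, where the full value was 4, and 0 to 1 between the exosome groups. Between the exosome groups, 0 passed with the replicate block and 0 without EKO_exo replicates 1 and 3. Same-numbered libraries did not deviate together (correlations of -0.0203 to 0.0236 over 9 pairs), so the numbers do not pair the cultures; with the block B2m had an adjusted p of 0.109 between the exosome groups and no other of the 10 genes changed its call. Of the other named genes, H2-Q4 (0.0808) in EKO_exo and Ezh2 (0.0544), Tmbim6 (0.0647) and Abtb2 (0.0562) in WT_exo lost their calls against PBS with the block. The median log2 fold change of the 10 genes ran from 0.086 to 0.119, from 0.068 to 0.089 and from -0.012 to 0.013 without single libraries, in EKO_exo against PBS, WT_exo against PBS and between the exosome groups. Over the whole table, genes called in EKO_exo against WT_exo numbered 5, against 38 with DESeq2, 28 without a filter, 9 with a filter at 5 CPM, 1 with the replicate block and 0 without EKO_exo replicates 1 and 3. In EKO_exo against PBS they numbered 746, against 249 without EKO_exo replicates 1 and 3, and 375 to 687 without 1 library; in WT_exo against PBS 730, and 399 to 870 without 1 library. The causes were not tested. The 10 genes had 4759 or more counts per library.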
